A study of Homo sapiens with 9 samples.

Results

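Aminoacyl-tRNA synthetases are the enzymes that attach each amino acid to its own transfer RNA, and their genes were followed here in lymphoma cells depleted of LSD1. The members were all rows of the count table that carry 1 of 37 listed synthetase symbols, 37 of 26816 genes in all. They fell into 21 genes of the cytosolic set and 16 genes of the mitochondrial set, whose symbols end in 2. The cells were OCI-Ly1, an established human cell line from a diffuse large B-cell lymphoma. They carried a puromycin-selected pLKO1 shRNA, named sh68 or sh72 in the count table, against KDM1A, the gene of the histone demethylase LSD1, or a non-targeting control shRNA (shSCR). Each of the 3 groups had 3 biological replicates, 9 libraries of polyadenylated RNA in all, with 29506767 to 35270849 counted reads each. The titles of the samples number the LSD1 shRNAs in another way, and no label ties those numbers to sh68 and sh72. All groups share 1 cell line, the vector and the drug selection, and shRNAs can act on transcripts other than their target.

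A synthetase activates an amino acid with ATP and passes it to the end of the matching transfer RNA, which carries it to the ribosome. Human cells keep separate sets for the cytosol and for mitochondria, both encoded in the nucleus. Single genes serve both compartments for glycine (GARS) and lysine (KARS), and EPRS joins the glutamyl and prolyl enzymes in 1 protein. Several cytosolic synthetases sit in a multisynthetase complex held together by the scaffold proteins AIMP1, AIMP2 and EEF1E1. When a transfer RNA stays uncharged, the kinase GCN2 (EIF2AK4) phosphorylates eIF2 and translation of the transcription factor ATF4 rises. ATF4 binds C/EBP-ATF response elements near genes of amino acid synthesis and transport and of many cytosolic synthetases.

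Promoter sequence was available for 30 of the 37 genes from RefSeq (GRCh38.p14), and the 250 bases before each start were searched on both strands. HARS and HARS2, the cytosolic and mitochondrial histidyl enzymes, lie head to head on chromosome 5 with their starts 85 bases apart, and both were lower in the LSD1 shRNA libraries. The whole stretch between them, chr5:140691371-140691454 on the plus strand, is shown with both matches to ACTTCCGG, a core that ETS factors bind, in capitals. The stretch holds 84 bases with 59.5% G and C, and its 2 matches lie at base 2 and base 77, on opposite strands.
HARS to HARS2: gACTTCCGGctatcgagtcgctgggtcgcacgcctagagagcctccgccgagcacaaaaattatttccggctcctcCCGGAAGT
This motif was chosen after the sequence had been read, and 4 of 16 cytosolic and 3 of 14 mitochondrial promoters hold it, against 3.64% of all 27303 promoters. HARS and HARS2, which share the stretch that the motif was read from, are counted among them, so part of these counts was fixed by the choice.

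The core of the C/EBP-ATF element, TGATGNAA, was found in 2 of 16 cytosolic promoters (AARS and IARS) and in 1 of 14 mitochondrial promoters (YARS2), against 3.19% of all promoters. These windows are shown because ATF4 targets were counted beside the synthetases. Each runs on its gene's own strand, the minus strand in all of them, with the match in capitals, at chr16:70289646-70289733 for AARS, chr9:92293698-92293750 for IARS and chr12:32756047-32756134 for YARS2.
AARS: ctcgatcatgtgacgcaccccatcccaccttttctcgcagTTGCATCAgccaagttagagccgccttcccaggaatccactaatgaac
IARS: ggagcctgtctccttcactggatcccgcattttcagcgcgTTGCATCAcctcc
YARS2: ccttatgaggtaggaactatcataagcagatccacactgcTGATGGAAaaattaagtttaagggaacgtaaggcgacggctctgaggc
In AARS and IARS the match reads TGATGCAA on the opposite strand. The E-box CACGTG, which MYC and related factors bind, was found in 1 of 16 cytosolic promoters (IARS) and 2 of 14 mitochondrial promoters (EARS2 and MARS2), against 6.49% of all promoters. A match is a description of the letters in these windows and was not tied to binding.

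KDM1A, on chromosome 1 at 23019468 to 23083689, had 23.4, 24.1 and 25.8 CPM (counts per 1000000 reads, with libraries scaled by TMM) in sh68 libraries and 19.1, 22.7 and 20.9 CPM in sh72 libraries, against 121.1, 119.9 and 122.8 CPM in shSCR libraries. Its RNA was thus at 20.2% of the shSCR mean in sh68 and at 17.2% in sh72. The 7 B-cell markers counted, among them MS4A1, CD79A, CD79B and PAX5, were all at 1 CPM or more in this B-cell line. Their summed level was 5030 to 5170 CPM in sh68 libraries and 3180 to 3350 CPM in sh72 libraries, against 4830 to 5000 CPM in shSCR libraries. All 7 were called lower in sh72, as were 26.3% of all genes tested. Markers of T cells, monocytes and erythroid cells summed to below 2 CPM in each library, with 0 of their genes averaging 1 CPM over the libraries. Markers of stroma and epithelium, 2 of which averaged 1 CPM or more, summed to 8.9 to 10.4 CPM in sh68 and 17.1 to 18.9 CPM in sh72, against 15.7 to 18.5 CPM in shSCR. The part of these shifts in the results on synthetases was not tested, and in bulk RNA fewer cells of a type and less RNA per cell cannot be told apart.

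In control cells the cytosolic set was the more abundant one. Per kilobase of exon, the median level in shSCR was 71.9 CPM over the 21 cytosolic genes and 12.5 CPM over the 16 mitochondrial genes. GARS stood first with 145.1 ± 2.36 CPM per kilobase (SD, n = 3). IARS (isoleucine) at 94.7 ± 0.387 and SARS (serine) at 93.7 ± 1.95 CPM per kilobase came next and lay within their spread of each other. From AARS (alanine, 85.5 CPM per kilobase) to MARS (methionine, 69.7 CPM per kilobase) 9 genes formed a close series, followed by LARS (leucine, 45.1), FARSB (a phenylalanine subunit, 44.8) and RARS (arginine, 40.5). FARSA, which encodes the other subunit of the phenylalanyl enzyme, had 79.1 ± 6.08 CPM per kilobase.

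**Figure D1:**
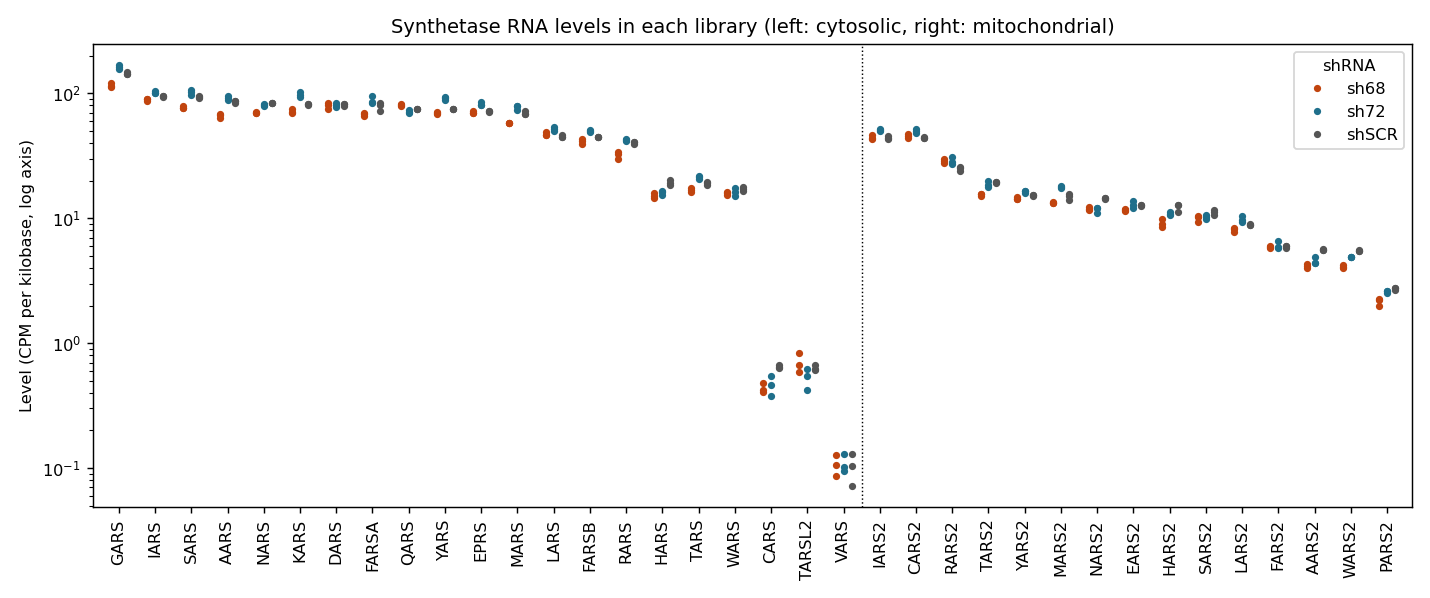
Level of each synthetase in every library, as CPM per kilobase of exon on a log axis, with genes of each class in order of their shSCR mean; points are single libraries of sh68, sh72 and shSCR. VARS2, listed at 0 in 7 of 9 libraries, is not drawn. Most cytosolic genes lie above most mitochondrial genes, and CARS, TARSL2 and VARS stand apart below 1 CPM per kilobase.

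Histidine, threonine and tryptophan enzymes formed a lower step of the cytosolic set, with HARS at 19.3 ± 0.887, TARS at 19.1 ± 0.663 and WARS at 17.2 ± 0.56 CPM per kilobase in shSCR. In the mitochondrial set IARS2 (44.4 ± 1.05) and CARS2 (44.1 ± 0.542) led and did not differ beyond their spread. RARS2 followed at 25.1 ± 1.08 and TARS2 at 19.4 ± 0.228 CPM per kilobase. The lower end held AARS2 at 5.6 ± 0.051, WARS2 at 5.52 ± 0.0652 and PARS2, the mitochondrial prolyl enzyme, at 2.74 ± 0.0576 CPM per kilobase.

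Of the cytosolic genes, CARS (cysteine), TARSL2 (a second threonyl enzyme) and VARS (valine) were nearly unread, with 0.647, 0.63 and 0.102 CPM per kilobase in shSCR. VARS had 13 to 18 reads in sh68 libraries and 14 to 17 in sh72 libraries, against 9 to 18 in shSCR libraries. VARS2 had 0 reads in all sh68 libraries, 2, 0 and 1 reads in sh72 libraries, and 0 reads in all shSCR libraries. A count of 0 allows up to 3 reads, or 0.0852 to 0.104 CPM in these libraries, counting error only. VARS and VARS2 lie on chromosome 6 with their starts 881514 bases apart, at 31777518 to 31795752 and 30914238 to 30926459, in the major histocompatibility region. Of the 94 coding genes within 1000000 bases of VARS, 6.38% reached 1 CPM, and of the 89 around VARS2 5.62% did, against 54.1% of 19864 coding genes of the annotation. Of the 28 coding genes within 1000000 bases of CARS, 32.1% reached 1 CPM. The levels of CARS, VARS and VARS2 are therefore given as listed, and whether reads were lost before counting was not tested.

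The comparison of cells with either LSD1 shRNA against control cells asked how synthetase RNA stood after LSD1 depletion. Genes are called higher or lower where edgeR's quasi-likelihood test gave an adjusted p below 0.05 over the 15725 genes tested, and 36 of the 37 synthetases were tested, all but VARS2. For the mean of both shRNAs, 3 of 21 cytosolic genes were called higher (EPRS, LARS and YARS) and 6 lower (AARS, CARS, GARS, HARS, NARS and RARS). Of 15 mitochondrial genes, 3 were called higher (CARS2, IARS2 and RARS2) and 7 lower (AARS2, HARS2, NARS2, PARS2, SARS2, TARS2 and WARS2). Over all genes tested 24.9% were called higher and 27.5% lower. The median log2 fold change was -0.03 over the cytosolic and -0.06 over the mitochondrial genes, against -0.02 over all genes tested. Both medians lay near that of all genes, and the shRNAs taken singly gave other counts, which follow. GARS was called lower on this mean at an adjusted p of 0.0497, and the call ended under 12 of 17 alternatives (adjusted p 0.0657 to 0.302), among them leaving out any shSCR library, sh68 replicate 1 or 3, or sh72 replicate 2 or 3. On this mean the calls also ended for YARS without any of the shSCR libraries, for EPRS without shSCR replicate 3 and for IARS2 without shSCR replicate 1 (adjusted p 0.0509 to 0.0759). Those of PARS2 and SARS2 each ended under 10 of 17 alternatives (adjusted p 0.0515 to 0.205).

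With sh68, synthetase RNA was lower in both classes. Of the 21 cytosolic genes 15 were called lower and 1 higher (QARS, the glutaminyl enzyme), and of the 15 mitochondrial genes 10 were called lower and 1 higher (RARS2, arginine). Over all genes tested 28.1% were called lower and 27.4% higher in this comparison. The median log2 fold change against shSCR was -0.17 for the cytosolic and -0.15 for the mitochondrial genes, against -0.01 for all genes. The 3 sh68 libraries lay below all 3 shSCR libraries for 15 cytosolic and 11 mitochondrial genes. How many of all genes tested separate in this way was not counted. Without shSCR replicate 1 the mitochondrial count lower was 6 in place of 10. Among the smaller changes, the sh68 call of IARS ended under 10 of 18 alternatives, 8 of them a library left out, that of FARSB under 5 of 18, that of YARS under 4 of 18 and that of EARS2 under 6 of 18. When offsets for transcript length and GC content were added, the log2 fold change of YARS in sh68 was -0.04 (adjusted p = 0.299) in place of -0.11. DARS (aspartate), EPRS, LARS, TARSL2 and VARS of the cytosolic set, and CARS2, FARS2, IARS2 and YARS2 of the mitochondrial set, did not pass.

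With sh72, the cytosolic genes stood the other way. Of 21, 12 were called higher and 2 lower (CARS and HARS), where 24.7% of all genes tested were called higher and 26.3% lower. Of 15 mitochondrial genes 5 were called higher (CARS2, IARS2, LARS2, MARS2 and RARS2) and 4 lower (AARS2, HARS2, NARS2 and WARS2). The median log2 fold change against shSCR was 0.11 for the cytosolic genes and 0.02 for the mitochondrial genes, against -0.01 for all genes. The mitochondrial median turned to -0.03 without sh72 replicate 1 and was 0.07 without sh72 replicate 3. The sh72 call of FARSA ended without shSCR replicate 3 (adjusted p = 0.0986) or without sh72 replicate 1 (adjusted p = 0.101). The 3 sh72 libraries lay above all shSCR libraries for 12 cytosolic and 6 mitochondrial genes, again without a count over all genes. Both comparisons use the same shSCR libraries, so the shRNAs were also compared with each other directly.

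**Figure D2:**
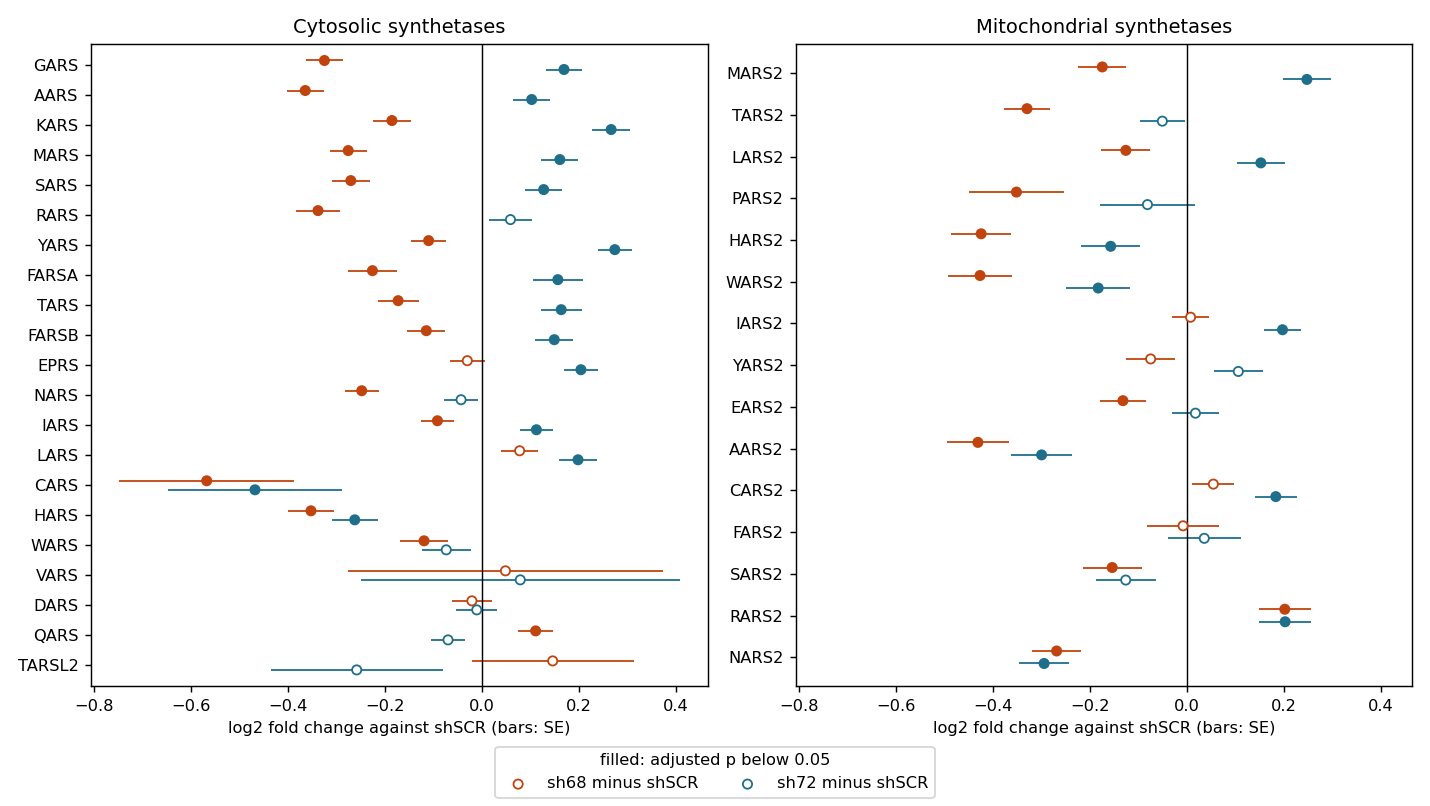
Log2 fold change against shSCR of every tested synthetase for sh68 and sh72, with bars for the SE; filled points have an adjusted p below 0.05, and genes run from the largest sh72 minus sh68 difference at the top. Most cytosolic points of sh68 lie left of 0 and most of sh72 right of 0, while AARS2, NARS2, HARS and CARS lie left for both shRNAs and RARS2 right for both.

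Set directly against sh68, sh72 cells had more synthetase RNA. Of the 21 cytosolic genes 14 were called higher and 2 lower (QARS and TARSL2), and of the 15 mitochondrial genes 10 were called higher and 0 lower. Over all genes tested 27.2% were called higher and 29% lower in sh72 than in sh68. The 0 comes from edgeR, with 0 at an unadjusted p below 0.05 as well and 0 by DESeq2 and by limma-voom. The median log2 difference was 0.23 for the cytosolic and 0.18 for the mitochondrial genes, against -0.01 for all genes. All 3 sh72 libraries lay above all 3 sh68 libraries for 14 cytosolic and 11 mitochondrial genes, and the same was not counted over all genes. No change of a synthetase reached 1.5-fold at the threshold: a test against that minimum (edgeR's glmTreat) called 0 synthetases in every comparison, 0 at an unadjusted p below 0.05.

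**Figure D3:**
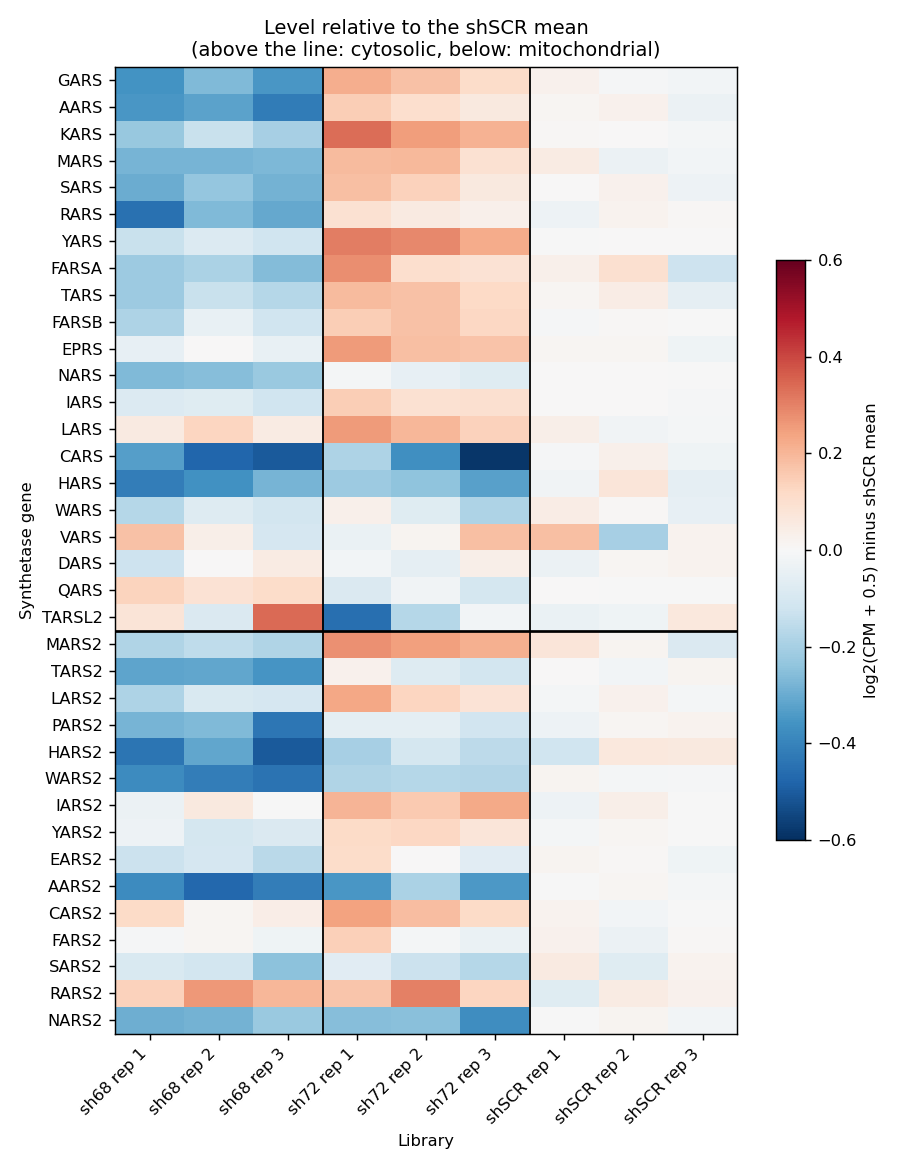
Each library's log2(CPM + 0.5) minus the shSCR mean for the 36 tested synthetases, with cytosolic genes above the line and mitochondrial genes below it, and the 3 libraries of sh68, sh72 and shSCR side by side. The sh68 columns are blue over most rows, the sh72 columns are red over most cytosolic rows, and the bottom rows show genes on the same side of shSCR with both shRNAs.

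The summed level of the cytosolic set was 1087 ± 21.3 CPM per kilobase in sh68 and 1329 ± 39.3 in sh72, against 1224 ± 14.7 in shSCR (SD, n = 3 each). The mitochondrial set summed to 229.5 ± 2.67 CPM per kilobase in sh68 and 256.3 ± 6.14 in sh72, against 242.3 ± 1.54 in shSCR. For both sums every sh68 library lay below and every sh72 library above all shSCR libraries. The ratio of cytosolic to mitochondrial level was 4.66, 4.78 and 4.77 in sh68 libraries and 5.23, 5.15 and 5.17 in sh72 libraries, against 5.11, 5.05 and 4.99 in shSCR libraries. The groups did not overlap in this ratio, with the cytosolic sum further from its shSCR level than the mitochondrial sum in each direction. The sums weigh abundant genes most. IARS2, CARS2 and RARS2 led the mitochondrial set in shSCR (44.4, 44.1 and 25.1 CPM per kilobase), and none of them was called lower in sh68. By the median gene, the classes moved by -0.17 (cytosolic) and -0.15 (mitochondrial) on the log2 scale in sh68. With 3 libraries against 3 an exact two-sided permutation test cannot go below 0.1, and no p is given for the ratio.

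**Figure D4:**
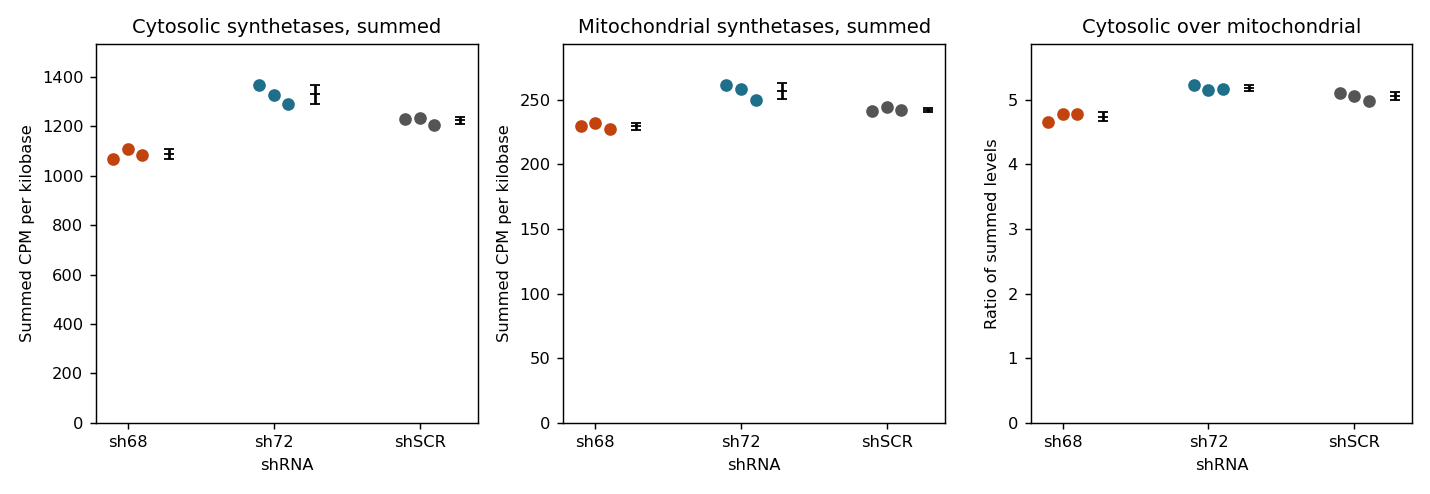
Summed level of the 21 cytosolic and the 16 mitochondrial synthetases in CPM per kilobase of exon, and the ratio of the sums, for each library of sh68, sh72 and shSCR; the bar beside each group is the mean ± SD of 3 libraries. Both sums are lowest in sh68 and highest in sh72, and the ratio runs from 4.66 in an sh68 library to 5.23 in an sh72 library.

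The largest differences between the shRNAs in the cytosolic set were in GARS, AARS, KARS and MARS. GARS (chromosome 7, 30594735 to 30634033) had 299.7, 320.3 and 301.6 CPM in sh68 libraries and 447.5, 434.9 and 415.7 CPM in sh72 libraries, against 392, 382.6 and 380.1 CPM in shSCR libraries. The 3 groups did not overlap. Its log2 fold change against shSCR was -0.33 ± 0.04 (SE) in sh68 (edgeR adjusted p = 1.29e-07) and 0.17 ± 0.04 in sh72 (adjusted p = 0.000632). On that scale sh72 exceeded sh68 by 0.49 ± 0.04 (adjusted p = 1.03e-10), 40.9% on a linear scale.

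AARS (chromosome 16, 70252298 to 70289506), which charges alanine, had 233, 237.6 and 221.7 CPM in sh68 libraries and 328.9, 318.3 and 309.7 CPM in sh72 libraries, against 299.5, 302.1 and 289.8 CPM in shSCR libraries. Again no library crossed into another group. Against shSCR it fell by 22.3% in sh68 (edgeR adjusted p = 1.86e-08) and rose by 7.35% in sh72 (adjusted p = 0.0263). The sh72 call ended without shSCR replicate 3 (adjusted p = 0.079) or without sh72 replicate 1 (adjusted p = 0.0917), while sh72 minus sh68 was 0.47 ± 0.04 on the log2 scale (adjusted p = 2.4e-10).

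KARS, which makes both the cytosolic and the mitochondrial lysyl enzyme by splicing, had 169.9, 181.6 and 173.2 CPM in sh68 libraries and 251.2, 236.9 and 229.7 CPM in sh72 libraries, against 200.1, 199.3 and 197.6 CPM in shSCR libraries. The groups were separate, with a log2 fold change of -0.19 ± 0.04 in sh68 (adjusted p = 0.00032) and 0.27 ± 0.04 in sh72 (adjusted p = 4.26e-06), and a difference of 0.45 ± 0.04 (adjusted p = 7.88e-10). MARS, the methionyl enzyme that also charges the initiator transfer RNA, had 166.9, 166.8 and 168.2 CPM in sh68 libraries and 231.4, 232 and 215.8 CPM in sh72 libraries, against 209.8, 197.7 and 200.3 CPM in shSCR libraries. All 3 groups were separate and the sh72 minus sh68 difference was 0.44 ± 0.04 (adjusted p = 9.83e-10). Exons of MARS and of DDIT3 on the other strand share 62 bases, and the strand setting of the counting is not known.

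The other cytosolic genes called higher in sh72 than in sh68 were SARS, RARS, YARS, FARSA, TARS, FARSB, EPRS, NARS, IARS and LARS, with log2 differences of 0.40 (SARS and RARS) to 0.12 (LARS, a call that ended without sh68 replicate 3, adjusted p = 0.0533). NARS, the asparaginyl enzyme, differed through sh68: its level was 70.2 ± 1.18 CPM per kilobase in sh68 and 80.9 ± 1.73 in sh72, against 83.4 ± 0.117 in shSCR, and it was called lower in sh68 (log2 fold change -0.25, adjusted p = 1.89e-06) but did not pass in sh72 (-0.04, adjusted p = 0.314). EPRS and LARS differed through sh72. LARS, the leucyl enzyme that also takes part in leucine sensing, had 223.1, 235.1 and 222 CPM in sh68 libraries and 256.5, 246.5 and 236.5 CPM in sh72 libraries, against 219.9, 211.5 and 213.2 CPM in shSCR libraries. Every library of either LSD1 shRNA lay above every shSCR library, and the log2 fold change was 0.08 ± 0.04 in sh68 (adjusted p = 0.094) and 0.20 ± 0.04 in sh72 (adjusted p = 0.000152).

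QARS and TARSL2 ran the other way. QARS had 238.2, 231 and 234.4 CPM in sh68 libraries and 204.5, 214.3 and 202 CPM in sh72 libraries, against 217.7, 217 and 217 CPM in shSCR libraries. The groups were separate, with sh72 lowest, and sh72 minus sh68 was -0.18 ± 0.04 on the log2 scale (edgeR adjusted p = 0.000139). TARSL2 had 80, 75 and 107 reads in sh68 libraries and 53, 63 and 69 reads in sh72 libraries, against 72, 65 and 76 reads in shSCR libraries. Its CPM values overlapped between sh72 (1.55, 1.99 and 2.26) and sh68 (2.46, 2.14 and 3.04), and the log2 difference of -0.40 ± 0.17 passed narrowly (adjusted p = 0.0483). That call ended under 14 of 18 alternatives (adjusted p 0.0508 to 0.275), among them without sh68 replicate 3 (-0.25) and without sh72 replicate 1 (-0.26), and it ended as well without any of the shSCR libraries, without sh68 replicate 1 and without sh72 replicate 2.

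CARS and HARS were the cytosolic genes called lower with each shRNA and on the mean, with all 6 LSD1 shRNA libraries below the shSCR libraries. HARS (chromosome 5, 140673905 to 140691370) had 61.1, 63.4 and 67.3 CPM in sh68 libraries and 70.1, 69 and 65.1 CPM in sh72 libraries, against 80.4, 85.9 and 78.8 CPM in shSCR libraries. The LSD1 shRNA libraries overlapped among themselves and not with shSCR. Its log2 fold change was -0.35 ± 0.05 in sh68 (adjusted p = 1.15e-06) and -0.26 ± 0.05 in sh72 (adjusted p = 6.5e-05), and sh72 minus sh68 did not pass (0.09 ± 0.05, adjusted p = 0.116). The RefSeq positions of HARS and HARS2 share no base, but in GENCODE 29, whose transcripts reach further, merged exons of HARS and HARS2 share 402 bases on opposite strands, 9.5% of the exon bases of HARS and 14.2% of those of HARS2.

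CARS had 49, 46 and 45 reads in sh68 libraries and 59, 46 and 36 reads in sh72 libraries, against 65, 60 and 62 reads in shSCR libraries. Its log2 fold change, the largest of any synthetase, was -0.57 ± 0.18 in sh68 (adjusted p = 0.00992) and -0.47 ± 0.18 in sh72 (adjusted p = 0.0334). The sh72 call ended under 8 of 18 alternatives (adjusted p 0.0506 to 0.174), among them leaving out any shSCR library, sh72 replicate 2 or sh72 replicate 3 (-0.33). With so few reads its SE is larger than that of the other cytosolic genes apart from TARSL2, whose SE is about the same, and VARS (0.33 with each shRNA). Whether reads of CARS were lost before counting was not tested, so its fold changes rest on the few reads listed.

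DARS and VARS did not pass in any comparison. DARS had 80 ± 4.88 CPM per kilobase in sh68 and 80.6 ± 2.42 in sh72, against 81.2 ± 1.68 in shSCR. WARS, the tryptophanyl enzyme, which interferon gamma induces, had 64.7, 69.1 and 67.6 CPM in sh68 libraries and 74.4, 69.3 and 64.1 CPM in sh72 libraries, against 75.2, 73.2 and 70.5 CPM in shSCR libraries. Its sh68 libraries lay below shSCR, with a log2 fold change of -0.12 ± 0.05 (adjusted p = 0.0463), and its sh72 libraries overlapped shSCR (-0.07 ± 0.05, adjusted p = 0.23). The sh68 call ended under 11 of 18 alternatives (adjusted p 0.0595 to 0.223), among them leaving out any sh68 library, shSCR replicate 1 or 2, or sh72 replicate 2. WARS shares 272 exon bases with WDR25 on the other strand.

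In the mitochondrial set, AARS2, NARS2 and WARS2 were lower and RARS2 was higher with each shRNA and on the mean, with all 6 libraries beyond shSCR. AARS2 (chromosome 6, 44298731 to 44313347) had 16.5, 15.4 and 16.1 CPM in sh68 libraries and 16.8, 18.9 and 16.9 CPM in sh72 libraries, against 21.6, 21.8 and 21.4 CPM in shSCR libraries. It fell by 25.8% in sh68 (adjusted p = 4.01e-06) and by 18.8% in sh72 (adjusted p = 0.000358), opposite in sh72 to its cytosolic counterpart AARS. Exons of AARS2 share 235 bases with TMEM151B on the other strand.

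NARS2 (chromosome 11, 78435968 to 78574864), the mitochondrial asparaginyl enzyme, had 34.2, 34.5 and 36 CPM in sh68 libraries and 35.2, 35.2 and 32.3 CPM in sh72 libraries, against 42, 42.6 and 41.6 CPM in shSCR libraries. The LSD1 shRNA libraries lay together and apart from shSCR. The log2 fold change was -0.27 ± 0.05 in sh68 (adjusted p = 8.24e-05) and -0.29 ± 0.05 in sh72 (adjusted p = 3.35e-05), with a difference of -0.03 ± 0.05. WARS2 had 11.9, 11.6 and 11.4 CPM in sh68 libraries and 13.8, 13.8 and 13.8 CPM in sh72 libraries, against 15.9, 15.5 and 15.6 CPM in shSCR libraries. The 3 groups of WARS2 did not overlap, and its log2 fold change was -0.43 ± 0.07 in sh68 (adjusted p = 8.25e-06) and -0.18 ± 0.07 in sh72 (adjusted p = 0.023). The sh72 call of WARS2 ended under 8 of 18 alternatives (adjusted p 0.0572 to 0.0931), among them leaving out any shSCR library, sh72 replicate 2 or sh72 replicate 3.

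RARS2, the mitochondrial arginyl enzyme, had 50.1, 54.6 and 52.3 CPM in sh68 libraries and 51.1, 56.4 and 49.8 CPM in sh72 libraries, against 43.3, 47.1 and 46.3 CPM in shSCR libraries. The LSD1 shRNA libraries lay above all shSCR libraries. It rose by 15% in sh68 (adjusted p = 0.00264) and by 15.1% in sh72 (adjusted p = 0.00295), while cytosolic RARS was called lower in sh68 (log2 fold change -0.34, adjusted p = 1.08e-06).

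HARS2, which starts beside HARS, had 25.4, 27.8 and 24.3 CPM in sh68 libraries and 30.1, 32.1 and 31 CPM in sh72 libraries, against 31.8, 36.2 and 36.1 CPM in shSCR libraries. The sh68 libraries were lowest and 1 sh72 library overlapped shSCR. Its log2 fold change was -0.42 ± 0.06 in sh68 (adjusted p = 3.07e-06) and -0.16 ± 0.06 in sh72 (adjusted p = 0.0344), and the sh72 call ended under 11 of 18 alternatives (adjusted p 0.0528 to 0.182), among them leaving out any sh72 library, shSCR replicate 2 or 3, or sh68 replicate 1. Unlike HARS, HARS2 was called higher in sh72 than in sh68 (0.27 ± 0.06, adjusted p = 0.000744).

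The largest mitochondrial differences between the shRNAs were in MARS2, TARS2, LARS2 and PARS2. MARS2, a gene of 1 exon for the mitochondrial methionyl enzyme, had 39.8, 40.6 and 39.7 CPM in sh68 libraries and 54.8, 53.6 and 52.5 CPM in sh72 libraries, against 47.5, 45.6 and 42.5 CPM in shSCR libraries. The groups were separate, with a log2 difference of sh72 minus sh68 of 0.42 ± 0.05 (adjusted p = 9.27e-08), close to the 0.44 of cytosolic MARS. Against shSCR the sh68 call of MARS2 (-0.17 ± 0.05, adjusted p = 0.00449) ended without shSCR replicate 1 (-0.13, adjusted p = 0.0618).

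TARS2 had 43.3, 43.4 and 42.1 CPM in sh68 libraries and 55, 51.2 and 50 CPM in sh72 libraries, against 54.1, 53.3 and 54.5 CPM in shSCR libraries. Only the sh68 libraries stood apart, and the log2 fold change was -0.33 ± 0.05 in sh68 (adjusted p = 2.73e-06) and -0.05 ± 0.05 in sh72 (adjusted p = 0.386). LARS2 had 40, 42.7 and 42.5 CPM in sh68 libraries and 53.7, 49.9 and 48.4 CPM in sh72 libraries, against 45.2, 46.4 and 45.3 CPM in shSCR libraries. The LARS2 groups were separate and sh72 minus sh68 was 0.28 ± 0.05 (adjusted p = 4.33e-05). Against shSCR, the sh68 call of LARS2 (adjusted p = 0.0371) ended under 11 of 18 alternatives (adjusted p 0.0511 to 0.18), among them leaving out any shSCR or sh68 library or sh72 replicate 2. Its sh72 call (adjusted p = 0.0133) ended without sh72 replicate 1 (adjusted p = 0.0922).

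PARS2 had 5.22, 5.27 and 4.63 CPM in sh68 libraries and 6.15, 6.16 and 5.9 CPM in sh72 libraries, against 6.28, 6.48 and 6.54 CPM in shSCR libraries. Every sh68 library lay below the others, and sh72 minus sh68 was 0.27 ± 0.10 (adjusted p = 0.0235), a call that ended without sh68 replicate 3 (adjusted p = 0.112), without sh72 replicate 1 (adjusted p = 0.0548) and with DESeq2 (adjusted p = 0.0503). The smallest called differences, of CARS2 (0.13) and EARS2 (0.15), both ended without sh72 replicate 1 (adjusted p = 0.0638 and 0.0876), and that of CARS2 also without sh68 replicate 2 (adjusted p = 0.0709). FARS2 was the 1 mitochondrial gene that did not pass in any comparison. SARS2 was called lower in sh68 (log2 fold change -0.15, adjusted p = 0.0358), a call that ended under 9 of 18 alternatives (adjusted p 0.0599 to 0.249). Of its exon bases, 67.4% lie in another annotated coding gene on the same strand, which has no row in the count table under its annotated name. MRPS12 on the other strand shares 15.8% of them, so the reads of SARS2 are uncertain.

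Of the 8 synthetases of the multisynthetase complex, 4 were called lower and 1 higher in sh68, where 28.1% of all genes tested were called lower and 27.4% higher. In sh72 5 were called higher (24.7% of all genes), and 6 were called higher and 1 lower (QARS) in sh72 than in sh68 (27.2% and 29% of all genes). The scaffolds AIMP1 and AIMP2 were called higher in sh72 than in sh68, by 0.35 ± 0.04 (adjusted p = 3.42e-07) and 0.47 ± 0.07 (adjusted p = 7.21e-06) on the log2 scale. AIMP1 had 61.3, 64.8 and 58.9 CPM in sh68 libraries and 78.5, 78.2 and 79.6 CPM in sh72 libraries, against 68.9, 72.5 and 73 CPM in shSCR libraries, with no overlap. EEF1E1, the third scaffold, was called higher on the mean (0.24 ± 0.06, adjusted p = 0.00311) and its difference between the shRNAs did not pass (0.14 ± 0.07, adjusted p = 0.0972).

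Of 12 tested genes of other charging and proofreading steps, 4 were called higher and 1 lower in sh68, and 7 higher and 2 lower in sh72. Over all genes tested 27.4% were called higher and 28.1% lower in sh68, and 24.7% and 26.3% in sh72. QRSL1 and GATB encode subunits of the amidotransferase that makes mitochondrial glutaminyl-tRNA. QRSL1 was called higher in sh68 (0.42 ± 0.04, adjusted p = 1.68e-09) and in sh72 (0.10 ± 0.04, adjusted p = 0.0352), whereas GATB, named after its values were seen, was lower in sh68 (-0.42 ± 0.08, adjusted p = 8.6e-05) and higher in sh72 (0.49 ± 0.08, adjusted p = 8.02e-06). In the selenocysteine pathway SEPHS2, which makes selenophosphate, was called higher on the mean (0.25 ± 0.03, adjusted p = 8.88e-07), and SEPSECS, the last enzyme of the pathway, was called lower (-0.30 ± 0.07, adjusted p = 0.00155).

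Beside the lists that follow, 27.4% of all genes tested were called higher and 28.1% lower in sh68, and 24.7% and 26.3% in sh72. In sh72 against sh68 the shares of all genes were 27.2% higher and 29% lower. Of 32 tested genes of transfer RNA transcription, maturation and export, 2 were called higher and 11 lower in sh68, 6 higher and 7 lower in sh72, and 16 higher and 1 lower in sh72 than in sh68. The members with the largest called mean were GTF3C6, a subunit of the polymerase III factor TFIIIC (0.33 ± 0.05, adjusted p = 3.54e-06), TP53RK, a kinase of the complex that modifies transfer RNA (-0.33 ± 0.05, adjusted p = 4.33e-06), POLR3B, the second largest subunit of polymerase III (-0.30 ± 0.05, adjusted p = 7.83e-05), and TSEN54, a subunit of the splicing endonuclease (-0.28 ± 0.06, adjusted p = 0.000199). Mitochondrial ribosomal proteins, which use the mitochondrial synthetases' products, had 8 genes called higher and 37 lower of 78 tested in sh68, 43 higher and 7 lower in sh72, and 58 higher and 3 lower in sh72 than in sh68. Their median log2 fold change was -0.13 in sh68 and 0.16 in sh72, and sh72 minus sh68 was 0.25. The prefix that chose them also took the pseudogenes MRPL45P2 and MRPS31P5, which were tested, and MRPL42P5 and the antisense gene MRPL23-AS1, which were not. On the mean 25 of the 78 were called higher and 17 lower, where 24.9% and 27.5% of all genes tested were. Their log2 fold changes on the mean ran from -0.51 to 0.65, with a median of 0.04. Among the lower ones, MRPS23 was called on the mean (-0.44 ± 0.05, adjusted p = 2.26e-08), as was MRPL28 (-0.42 ± 0.05, adjusted p = 4.05e-08), with -0.81 ± 0.05 in sh68 and -0.04 ± 0.05 in sh72.

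**Figure D5:**
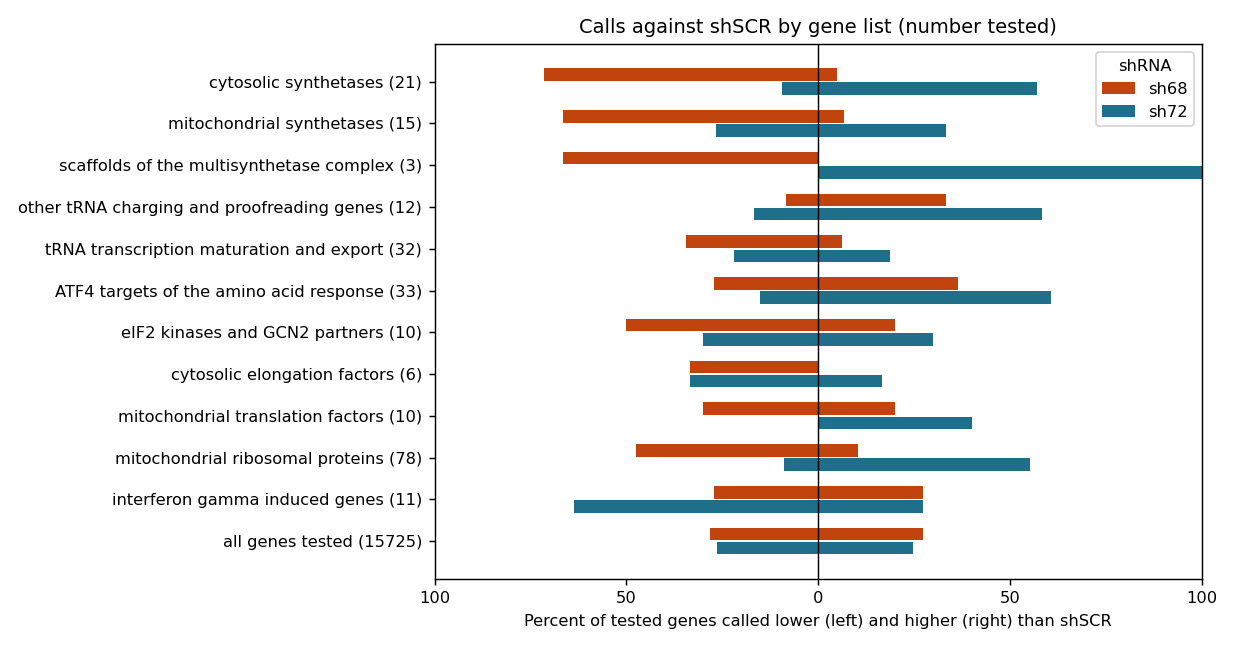
Percent of the tested genes of each list called lower (bars to the left) and higher (bars to the right) than shSCR, for sh68 and sh72, with the number tested in brackets and all genes tested at the bottom. Cytosolic synthetases, the complex's 3 scaffolds and mitochondrial ribosomal proteins have longer left bars in sh68 and longer right bars in sh72, against bars of 24.7% to 28.1% for all genes.

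ATF4 itself had 301.7, 298.8 and 287.8 CPM in sh68 libraries and 354.9, 337.9 and 313.2 CPM in sh72 libraries, against 310.9, 333.8 and 314.3 CPM in shSCR libraries. Its sh68 libraries lay lowest and its sh72 libraries overlapped shSCR, and sh72 exceeded sh68 by 0.18 ± 0.04 on the log2 scale (adjusted p = 0.00091). ATF4 acts mainly through its translation, which RNA counts do not measure. Of 33 tested targets of ATF4 in the amino acid response, none of which is a synthetase, 12 were called higher and 9 lower in sh68, 20 higher and 5 lower in sh72, and 21 higher and 5 lower in sh72 than in sh68. The median log2 fold change was 0.05 in sh68 and 0.26 in sh72, and sh72 minus sh68 was 0.20. Of all genes tested, 27.4% were called higher and 28.1% lower in sh68, and 24.7% and 26.3% in sh72. In sh72 against sh68 these shares were 27.2% and 29%.

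Within that list PYCR1, a proline synthesis enzyme, was called higher in sh68 (0.38 ± 0.10, adjusted p = 0.00347) and further in sh72 (1.15 ± 0.10, adjusted p = 8.93e-10). PSPH, the last enzyme of serine synthesis, had 67.4, 67.5 and 65.1 CPM in sh68 libraries and 76.6, 70 and 71.4 CPM in sh72 libraries, against 50.8, 47.2 and 48.1 CPM in shSCR libraries, and all 6 lay above shSCR. DDIT4, an inhibitor of mTORC1 signalling, fell with each shRNA, by 1.58 on the log2 scale in sh68 (adjusted p = 6.79e-14) and by 0.92 in sh72 (adjusted p = 9.71e-10). ALDH1L2, a mitochondrial folate enzyme, was called higher in sh72 (1.89 ± 0.30, adjusted p = 1.16e-05) from below 1 CPM in shSCR.

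EIF2AK4, the gene of GCN2, was called lower in sh68 (-0.20 ± 0.04, adjusted p = 0.000337) and did not pass in sh72 (-0.04 ± 0.04, adjusted p = 0.508). Of the other eIF2 kinases, EIF2AK2 (PKR) fell by 0.95 in sh68 (adjusted p = 7.75e-15) and by 0.41 in sh72 (adjusted p = 3.31e-08) on the log2 scale, and EIF2AK3 (PERK) rose by 0.91 ± 0.05 in sh68 (adjusted p = 3.04e-14) and by 0.14 ± 0.05 in sh72 (adjusted p = 0.014). MYC, whose product is known to raise many genes of translation, was called lower in sh68 (-0.16 ± 0.04, adjusted p = 0.00235) and did not pass in sh72 (-0.06 ± 0.04, adjusted p = 0.253). Cytosolic elongation factors, which take up charged transfer RNA, had 2 of 6 called lower in sh68, against 28.1% of all genes. In sh72 1 of the 6 was called higher and 2 lower, against 24.7% and 26.3% of all genes. EEF1G, a subunit of the EEF1B exchange factor, fell by 0.59 in sh68 (adjusted p = 1.29e-11) and by 0.40 in sh72 (adjusted p = 1.54e-08). Of 10 tested mitochondrial translation factors 2 were called higher and 3 lower in sh68, and 4 higher in sh72. The shares of all genes were 27.4% higher and 28.1% lower in sh68, and 24.7% higher in sh72. MTRF1L, a mitochondrial release factor, was called higher on the mean (0.31 ± 0.07, adjusted p = 0.00106).

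WARS is also a member of the interferon gamma response, so 11 other tested genes induced by that cytokine were counted. In sh68 3 were called higher and 3 lower, and in sh72 3 higher and 7 lower. Of all genes tested, 27.4% were called higher and 28.1% lower in sh68, and 24.7% and 26.3% in sh72. IRF9, a subunit of the interferon-activated factor ISGF3, had 29.1, 29.3 and 32.3 CPM in sh68 libraries and 51.6, 51.8 and 48.2 CPM in sh72 libraries, against 82.4, 82.8 and 80.2 CPM in shSCR libraries. IRF9 was separate in all 3 groups, with a log2 fold change of -1.43 ± 0.05 in sh68 (adjusted p = 4.31e-17) and -0.69 ± 0.05 in sh72 (adjusted p = 2.54e-11), against the -0.12 and -0.07 of WARS. Other genes of the list went up: GBP2, below 1 CPM in shSCR, rose by 0.84 ± 0.23 in sh68 (adjusted p = 0.00291) and 0.71 ± 0.23 in sh72 (adjusted p = 0.0136). In sh68 7 of the 11 had a positive log2 fold change, with a median of 0.115. In sh72 4 did, with a median of -0.409.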

How the data were processed

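The values are the authors' deposited read counts per gene symbol, in whole numbers that differ in total between libraries. Per the submitters' processing notes, featureCounts 1.5.2, STAR 2.5.2 and CASAVA 1.8.2 were used with hg38. For the strand setting, the annotation and the parameters, the sources used here say nothing, so reads in bases shared by exons of 2 genes are uncertain.

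Counts were fitted with edgeR 4.0.16 in R 4.3.3: filterByExpr left 15725 genes, libraries were scaled by TMM, and 1 quasi-likelihood model held all 9 libraries. Tested were sh68, sh72 and their mean against shSCR, and sh72 against sh68. P-values were adjusted by Benjamini-Hochberg over all genes tested, with 0.05 as the threshold. SE is the absolute log2 fold change over the square root of F. Fold changes are tied to the TMM scale. The p-values measure the spread between these replicates of 1 cell line.

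CPM per kilobase used merged exons of GENCODE 29. Symbols were matched to RefSeq positions (GRCh38.p14) through Ensembl IDs. Scripts were tested on simulated counts.

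Values in every library are given for synthetases called with the same sign on the mean and with each shRNA with all 6 libraries beyond shSCR, for up to 4 per class with the largest called difference between the shRNAs, and for WARS, GARS, KARS and TARSL2; HARS2, LARS, QARS and AIMP1 were added after their values were seen, as were AIMP2 and GATB, with fold changes alone. Of each other list up to 4 called genes with the largest mean were eligible. A few genes that this rule took are not reported here. Members and lists were chosen with earlier results of these data known. Alternatives were RLE scaling, library size alone, other filters, DESeq2 1.42.0, limma-voom (limma 3.58.1), fewer groups, the replicate number as a block, a minimum of 1.5-fold, other class borders, each library left out, and offsets for GC content and transcript length, which were added after seeing the data.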

Additional observations from a re-analysis of the deposited data

Results flagged for a closer look

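The effects of the shRNAs against shSCR differed, by edgeR's test of sh72 minus sh68 itself, for 26 of the 36 tested synthetases. Over all genes tested 27.2% were called higher and 29% lower in that comparison. In the cytosolic set the log2 difference of sh72 minus sh68 was 0.49 for GARS, 0.47 for AARS, 0.45 for KARS, 0.44 for MARS, 0.40 for SARS, 0.40 for RARS and 0.38 for YARS. It was 0.38 for FARSA, 0.34 for TARS, 0.26 for FARSB, 0.23 for EPRS, 0.20 for NARS, 0.20 for IARS and 0.12 for LARS. It was negative for QARS at -0.18 and for TARSL2 at -0.40. In the mitochondrial set it was 0.42 for MARS2, 0.28 for TARS2, 0.28 for LARS2, 0.27 for PARS2, 0.27 for HARS2, 0.24 for WARS2, 0.19 for IARS2, 0.18 for YARS2, 0.15 for EARS2 and 0.13 for CARS2. The part of the lower B-cell markers in sh72 in these differences was not tested. Groups of 3 were too small to look for single outlying libraries.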

How the results depend on the processing

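No result changed direction past its threshold. Over 144 log2 fold changes of single synthetases and up to 18 alternatives each, 2385 values stayed on their side of the threshold, 147 lost a call and 20 gained one. Calls that stayed kept their direction, and values called in neither fit were not compared for direction. With a minimum of 1.5-fold, each of the 8 counts of called synthetases was 0. Scaling by library size alone put the cytosolic median at -0.00146 on the mean of both shRNAs and 0.151 in sh72. Offsets for GC content and transcript length put it at 0.148 in sh72 and 0.28 for sh72 minus sh68. Leaving out GARS and KARS put it at -0.12 in sh68. Without division by length the log2 ratio of the summed sets was -0.0541 in sh68, in place of -0.0924; the cause was not tested.

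Leaving out each library in turn gave, for the cytosolic set, 5 to 8 genes lower on the mean (median -0.0488 to -0.0082), 11 to 15 lower in sh68 (-0.186 to -0.144), 10 to 12 higher in sh72 (0.0923 to 0.143) and 14 to 15 higher in sh72 than in sh68 (0.206 to 0.259). For the mitochondrial set it gave 5 to 7 lower on the mean (-0.0836 to -0.0243), 6 to 10 lower in sh68 (-0.164 to -0.125), 4 to 6 higher in sh72 (-0.0338 to 0.0747) and 7 to 10 higher in sh72 than in sh68 (0.166 to 0.198). The log2 ratio of the sums ranged over -0.102 to -0.0803 in sh68 and 0.0286 to 0.0463 in sh72.

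Whether the replicate numbers pair libraries was not settled. Between groups, residuals of same-numbered libraries had r of -0.0466 to 0.145, and those of differently numbered libraries -0.158 to 0.081. Over all genes tested the replicate block gave 4091 called higher and 4540 lower on the mean, in place of 3908 and 4318. With the replicate block the cytosolic count lower on the mean was 8 in place of 6, and the other 7 counts stayed as they were. A fit of only the groups compared was not run for the mean. Reads below about 100 per library limit CARS, TARSL2, VARS and VARS2.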
